A study of Homo sapiens with 6 samples.

Results

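The ID proteins ID1, ID2, ID3 and ID4 and the E proteins TCF3, TCF4 and TCF12 that they bind were followed across 3 cultures of the human neuroblastoma line SK-N-AS. The members were taken by symbol from the platform annotation of the arrays, and all probe sets that carry the single symbol of a member were read. These are 7 genes of the 19775 with a single-symbol probe set, and 35 probe sets of 41091. Where a gene has several probe sets, the one with the highest mean signal across all 6 arrays leads. Of the 35 probe sets, 23 reached log2 5 on at least 2 arrays and were tested, with at least 1 for each of the 7 genes.

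For iCSC, attached cells received 2.5 uM of 5AdC, a nucleoside analogue (decitabine) that blocks DNA methyltransferases, over 5 days, and spheroids were then grown from them in medium without serum. Sphere cells were grown as spheroids in serum-free medium with no pretreatment, and Monolayer cells were grown attached with no pretreatment. All 3 cultures are the same cell line, and each was measured on 2 arrays from 200 ng of total RNA. The study asked what stem cell phenotype each culture has. Levels are log2 GCRMA signals (an array signal corrected for background, 1 unit being a doubling), and means are given ± SD of the 2 arrays (n = 2 throughout). The labels do not state whether the 2 arrays per culture are separate cultures, so the p-values cover only array-to-array spread, which may be technical. Precision is limited by the number of arrays. Fold changes come from limma on all 10459 tested genes, with Benjamini-Hochberg adjusted p-values over those genes and a call at an adjusted p under 0.05. The 3 comparisons share arrays, so their values are not independent of each other.

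ID proteins have a helix-loop-helix domain and lack the basic region that touches DNA. They pair with E proteins and keep them from pairing with tissue-specific basic helix-loop-helix factors, which bind E-box sites and drive differentiation. ID1, ID2 and ID3 are well-known targets of bone morphogenetic protein (BMP) signalling through SMAD factors. In neuroblastoma, ID2 has been studied beside MYCN and the retinoblastoma protein, and SK-N-AS belongs to the lines without MYCN amplification.

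5AdC lowers methylation at CG dinucleotides, so the promoters of the family members that behaved most differently are shown with each CG in capitals. They are the 250 bases before the annotated start, from RefSeq on GRCh38.p14, at chr20:31605039-31605288 on the plus strand for ID1, chr2:8681806-8682055 on the plus strand for ID2 and chr6:19837120-19837369 on the plus strand for ID4.
ID1: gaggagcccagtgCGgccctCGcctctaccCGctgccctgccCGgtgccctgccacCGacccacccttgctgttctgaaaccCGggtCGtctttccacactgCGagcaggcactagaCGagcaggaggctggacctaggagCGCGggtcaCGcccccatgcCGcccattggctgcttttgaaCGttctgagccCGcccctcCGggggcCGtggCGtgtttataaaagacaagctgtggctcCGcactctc
ID2: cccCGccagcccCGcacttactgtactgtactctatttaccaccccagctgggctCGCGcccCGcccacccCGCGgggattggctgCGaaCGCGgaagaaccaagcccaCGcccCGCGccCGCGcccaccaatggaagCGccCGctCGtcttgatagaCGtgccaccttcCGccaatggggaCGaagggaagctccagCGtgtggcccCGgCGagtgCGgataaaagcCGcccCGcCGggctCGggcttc
ID4: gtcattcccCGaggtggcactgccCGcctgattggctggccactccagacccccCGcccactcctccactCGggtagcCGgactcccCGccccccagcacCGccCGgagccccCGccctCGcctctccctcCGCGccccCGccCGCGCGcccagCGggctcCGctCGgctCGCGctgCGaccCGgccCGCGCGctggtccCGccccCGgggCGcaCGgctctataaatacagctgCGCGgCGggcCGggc
The window held 19 CG in ID1, 29 in ID2 and 34 in ID4, against a median of 11 over 35116 promoter windows of this length. A count at least as high was found in 34.6% of all windows for ID1, in 14.1% for ID2 and in 6.84% for ID4. The ID3 window, chr1:23559502-23559751 on the minus strand, held 24 CG, a count reached by 23.7% of windows. Methylation was not measured in these samples, and the counts describe the sequence only. The E-box letters CANNTG occurred in the ID2 and ID4 windows, 1 each, and in 61.8% of all windows. The letters TATAAA, read on both strands, occurred in the ID1 and ID4 windows and in 10.7% of all windows. In ID1 the 2 matches, 1 on each strand, overlap. The letters CCAAT, read on both strands, occurred 1 time in ID1, 3 times in ID2 and 1 time in ID4, and in 32% of all windows. Neither GGCGCC nor GTCTNGAC, letters that SMAD factors are known to bind, occurred in the windows of the 4 ID genes. They occurred in 16.4% and 1.26% of all windows, and both strands were read for each. Only these 250 bases were read, and for SMAD factors only these 2 strings of letters. The absence thus says nothing about other or shorter letters that SMAD factors bind, or about sites farther from the start.

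The arrays resembled each other in overall signal, with medians of 2.78 to 2.83 and 34.3% to 35.2% of probe sets at or above log2 5. The r between the 2 arrays of a culture over all tested genes was 0.984 in iCSC, 0.992 in Sphere and 0.996 in Monolayer. The 3' probe set of ACTB exceeded its 5' probe set, a measure of RNA quality, by 1.40 and 1.47 in iCSC, 1.21 and 1.22 in Sphere, and 1.16 and 1.25 in Monolayer (log2). For GAPDH the excess lay between 0.12 and 0.20 on all 6 arrays. Of 9 adrenergic neuroblast markers with a probe set, 7 reached log2 5 on both arrays in iCSC, 8 in Sphere and 4 in Monolayer, and their summed levels were 64.3 to 67.1, 86.4 to 90.7 and 45.2 to 46.8 in the same order of cultures. Of 10 mesenchymal markers, 10 did so in iCSC, 9 in Sphere (AXL was under the limit) and 10 in Monolayer, with sums of 103 to 107, 96.2 to 96.8 and 110 to 111. Of 4 Schwann and glial markers, ERBB3 alone reached the limit on both arrays, in iCSC and Monolayer, and the sums were 14.8 to 15.5, 12.1 to 12.8 and 13.0 to 13.2. Of 7 leukocyte markers PTPRC alone did, in Sphere and Monolayer, with sums of 16.9, 26.4 to 26.7 and 25.7 to 26.0. Of 5 endothelial markers PECAM1 alone did, in Sphere, with sums of 16.49 to 17.23, 17.05 to 17.41 and 14.6 to 14.7. What part these differences between the cultures play in the results on the ID and E protein genes was not tested. In bulk cultures, fewer cells of a type and less RNA per cell cannot be told apart.

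The 4 ID genes did not follow each other. ID1 was high in Monolayer and low in both spheroid cultures, ID2 was low in Sphere alone, ID3 was slightly lower in both spheroid cultures, and ID4 was measured above background in iCSC alone. Of the 3 E proteins, TCF4 was higher in both spheroid cultures than in Monolayer, TCF12 was highest in iCSC, and the probe sets of TCF3 disagreed.

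**Figure D1:**
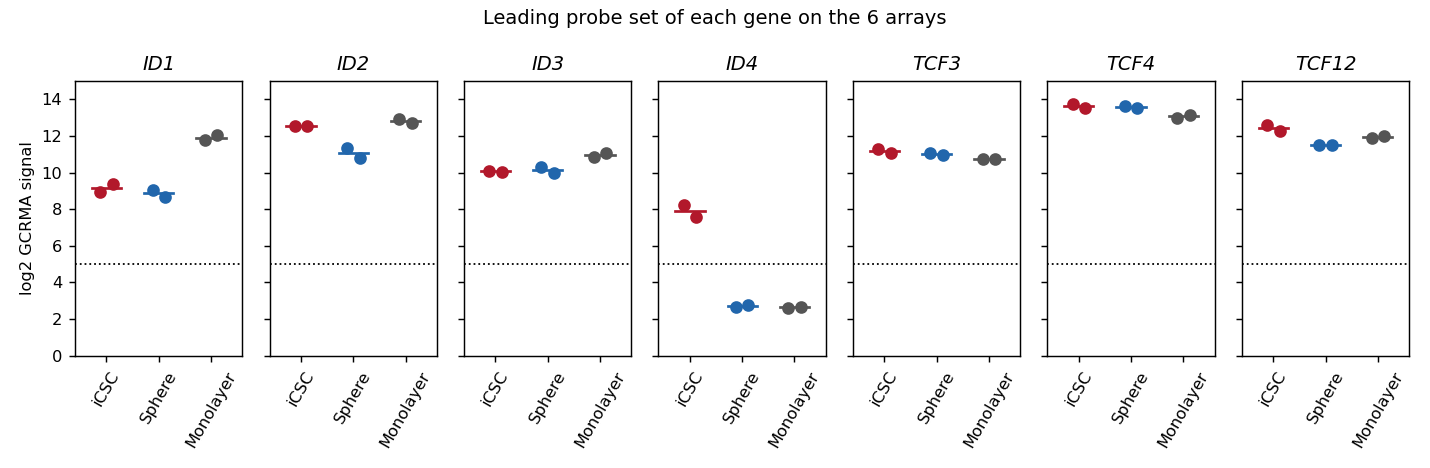
Log2 GCRMA signal of the leading probe set of each of the 7 genes (y axis) in iCSC, Sphere and Monolayer (x axis). Points are the 2 arrays of a culture, short lines their mean, and the dotted line marks log2 5; ID4 lies above it only in iCSC, and ID1 lies near 12 only in Monolayer.

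In iCSC against Sphere, 3 of the 7 genes were called, all of them higher in iCSC, beside 38.5% of all genes (19.3% higher and 19.2% lower in iCSC). They were ID2, ID4 and TCF12, and the median change of the 7 genes was 0.30 (log2), beside 0.01 over all genes. In Sphere against Monolayer, 5 of 7 were called, 1 higher and 4 lower in Sphere, beside 59% of all genes (30% higher and 29.1% lower). TCF4 was the higher one, ID1, ID2, ID3 and TCF12 were the lower ones, and the median was -0.43, beside 0.01 over all genes. In iCSC against Monolayer, 6 of 7 were called, 4 higher and 2 lower in iCSC, beside 55.6% of all genes (29% higher and 26.6% lower). The higher ones were ID4, TCF3, TCF4 and TCF12, the lower ones ID1 and ID3, and the median was 0.43, beside 0.02 over all genes. Calls were so frequent among all genes that a call alone sets no member apart. ID4 passed the filter through its iCSC arrays alone, which fixes its direction. Its place among the higher genes in both comparisons with iCSC, and in these medians, supports nothing.

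**Figure D2:**
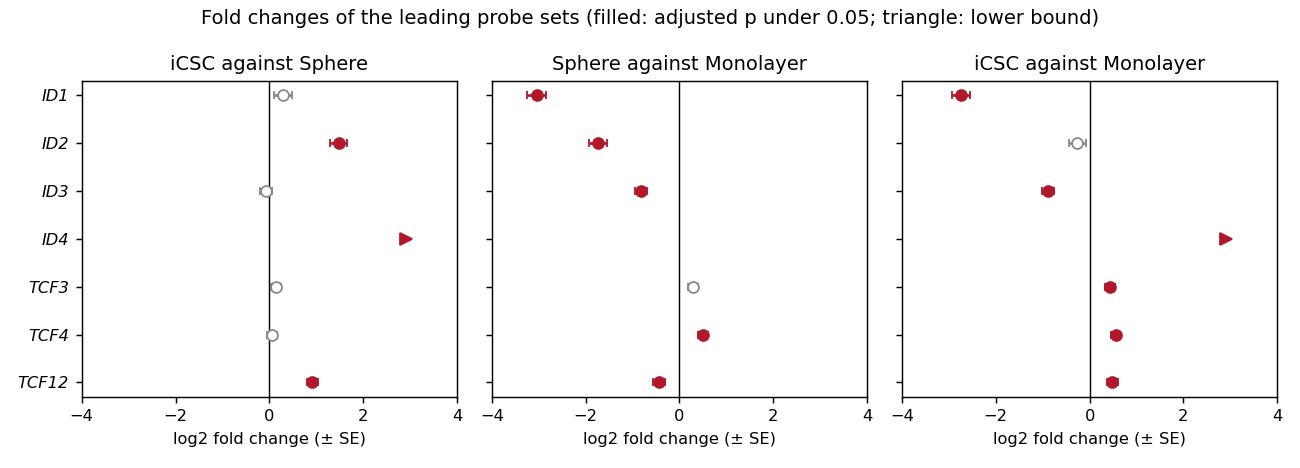
Log2 fold change (x axis) of the 7 genes (y axis) in the 3 comparisons, with bars for the standard error; filled points have an adjusted p under 0.05. Triangles give ID4 as a lower bound, with values under log2 5 set to 5, and no ID4 point is drawn for Sphere against Monolayer, where all 4 arrays were under that limit; ID1 stands farthest to the left in both comparisons with Monolayer.

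ID1 is the ID protein best known as an immediate BMP target and as a marker of undifferentiated and endothelial cells. Its single probe set, on a gene of chromosome 20, gave 8.95 and 9.39 in iCSC, 9.04 and 8.69 in Sphere, and 11.79 and 12.04 in Monolayer. Both Monolayer arrays lay above all 4 spheroid arrays, while iCSC and Sphere overlapped. ID1 was 8.25-fold lower in Sphere than in Monolayer (log2 change -3.05 ± 0.19 SE, limma adjusted p = 3.16e-05) and 6.71-fold lower in iCSC than in Monolayer (-2.75 ± 0.19, adjusted p = 6.82e-05). Between iCSC and Sphere the change was 0.30 ± 0.19 (adjusted p = 0.274), with a 95% confidence interval of -0.17 to 0.77. It was 0.52 without the first iCSC array (adjusted p = 0.078), 0.078 without the second, 0.47 without the first Sphere array and 0.12 without the second, with no call in these 4 cases. 5AdC pretreatment thus came with no called difference in ID1 between the spheroid cultures, and the interval still allows a modest one in either direction.

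ID2, which binds proteins of the retinoblastoma family in addition to E proteins, had another pattern. Its leading probe set, on a gene of chromosome 2, gave 12.55 and 12.55 in iCSC, 11.36 and 10.79 in Sphere, and 12.90 and 12.72 in Monolayer. The 2 Sphere arrays were the lowest, and no array of a culture overlapped with another culture. ID2 was 2.78-fold higher in iCSC than in Sphere (log2 change 1.48 ± 0.18 SE, limma adjusted p = 0.00124) and 3.33-fold lower in Sphere than in Monolayer (-1.74 ± 0.18, adjusted p = 0.000305). In iCSC against Monolayer the change was -0.26 ± 0.18 (adjusted p = 0.266), with a 95% confidence interval of -0.70 to 0.18. That comparison depends on the reference: the median change of the 744 tested genes of chromosome 2 was 0.27, and with chromosome medians taken off ID2 was lower in iCSC by -0.56 (adjusted p = 0.0324).

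The second ID2 probe set gave 10.85 and 10.81 in iCSC, 9.44 and 8.82 in Sphere, and 11.18 and 11.03 in Monolayer. It was called in the same comparisons and the same directions as the leading one, with changes of 1.70 in iCSC against Sphere (adjusted p over probe sets = 0.00104), -1.98 in Sphere against Monolayer (0.000249) and -0.28 in iCSC against Monolayer (0.272).

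Set against each other, ID1 and ID2 were both lower in Sphere than in Monolayer, and in iCSC only ID2 stood near its Monolayer level. The log2 change of ID1 minus that of ID2 was -1.18 in iCSC against Sphere, -1.31 in Sphere against Monolayer and -2.49 in iCSC against Monolayer. Array by array, the difference between the genes did not overlap between cultures, but a two-sided exact permutation test with 2 arrays a culture can give no p below 0.333, and it gave that value in each comparison.

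ID3, like ID1 and ID2 a BMP-responsive gene, had smaller called changes than ID1 and ID2. Its single probe set, on a gene of chromosome 1, gave 10.09 and 10.06 in iCSC, 10.28 and 9.99 in Sphere, and 10.86 and 11.05 in Monolayer. The Monolayer arrays were above the other 4, and the iCSC arrays lay within the range of the Sphere arrays. ID3 was 1.76-fold lower in Sphere than in Monolayer (log2 change -0.82 ± 0.13 SE, limma adjusted p = 0.00183) and 1.84-fold lower in iCSC than in Monolayer (-0.88 ± 0.13, adjusted p = 0.00149). In iCSC against Sphere the change was -0.07 ± 0.13 (adjusted p = 0.72), with a 95% confidence interval of -0.37 to 0.24, and its sign turned to 0.077 when the first Sphere array was left out.

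ID4, known from neural progenitors and as a gene silenced by promoter methylation in several cancers, was under log2 5 on all Sphere and Monolayer arrays. Its leading probe set, on a gene of chromosome 6, gave 8.26 and 7.55 in iCSC, 2.66 and 2.75 in Sphere, and 2.62 and 2.69 in Monolayer. With values under log2 5, the limit taken as background, set to 5, the iCSC level of ID4 was at least 7.48-fold that of Sphere (limma adjusted p = 2.34e-05) and, by the same bound, that of Monolayer (adjusted p = 1.32e-05). The p-values come from the values as deposited and test their change, not the bound. No fold is given for Sphere against Monolayer, where both cultures were under the limit.

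ID4 has 5 probe sets, of which 2 were tested. The second tested one gave 7.27 and 6.64 in iCSC, 2.96 and 3.05 in Sphere, and 3.04 and 3.09 in Monolayer. In iCSC it exceeded either other culture at least 3.88-fold. The 3 others stayed under log2 5 on all 6 arrays, and their highest value was 3.10 on the first iCSC array. Both tested probe sets passed the filter through the iCSC arrays alone, so their direction was fixed by that choice. The same pattern was found in other genes: 170 of the 10459 tested genes, 1.63%, were at or above the limit on both iCSC arrays and under it on the 4 others. Of these 170 genes, 43, ID4 included, had an iCSC mean at least as high as that of ID4.

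The E proteins are broadly expressed partners that bind E-boxes alone as pairs or together with tissue-specific factors. TCF4, also called E2-2, had a high and even signal. Its leading probe set, on a gene of chromosome 18, gave 13.74 and 13.50 in iCSC, 13.63 and 13.50 in Sphere, and 13.0 and 13.13 in Monolayer. The Monolayer arrays were the lowest, and iCSC and Sphere overlapped. TCF4 was 1.41-fold higher in Sphere than in Monolayer (log2 change 0.50 ± 0.10 SE, limma adjusted p = 0.00542) and 1.47-fold higher in iCSC than in Monolayer (0.56 ± 0.10, adjusted p = 0.00391). In iCSC against Sphere the change was 0.06 ± 0.10 (adjusted p = 0.701), with a 95% confidence interval of -0.19 to 0.30. All 8 TCF4 probe sets were tested and called higher in Sphere than in Monolayer, with changes of 0.28 to 1.11, and 7 of 8 were called higher in iCSC than in Monolayer. The probe set not called there had an adjusted p of 0.0624.

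TCF12, also called HEB, was highest in iCSC. Its leading probe set gave 12.62 and 12.27 in iCSC, 11.53 and 11.53 in Sphere, and 11.91 and 12.01 in Monolayer, with no overlap between cultures. It is the only one of 4 TCF12 probe sets that was tested. TCF12 was 1.89-fold higher in iCSC than in Sphere (log2 change 0.92 ± 0.12 SE, limma adjusted p = 0.00175), 1.35-fold lower in Sphere than in Monolayer (-0.43 ± 0.12, adjusted p = 0.0213) and 1.40-fold higher in iCSC than in Monolayer (0.49 ± 0.12, adjusted p = 0.015).

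The TCF12 values moved with those of its chromosome in both comparisons with Sphere, and not in iCSC against Monolayer. The 347 tested genes of chromosome 15 had a median change of 0.47 in iCSC against Sphere and -0.46 in Sphere against Monolayer. With chromosome medians taken off, the TCF12 change was 0.47 in iCSC against Sphere (adjusted p = 0.0264) and 0.007 in Sphere against Monolayer (adjusted p = 0.965). In iCSC against Monolayer the chromosome median was 0.005. There the TCF12 change was 0.479 with chromosome medians taken off (limma adjusted p = 0.016). What lies behind the shift of chromosome 15 was not tested. The Sphere against Monolayer call was also lost when any array of the 2 cultures was left out (adjusted p = 0.0691 to 0.125), and the iCSC against Monolayer call when the first (0.1) or the second (0.0567) Monolayer array was. The median changes of the chromosomes of the 6 other members lay between -0.23 and 0.29 over the 3 comparisons.

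TCF3, which encodes E12 and E47, has no settled direction on these arrays. Its leading probe set, on a gene of chromosome 19, gave 11.30 and 11.05 in iCSC, 11.08 and 10.97 in Sphere, and 10.72 and 10.75 in Monolayer. The Monolayer arrays were the lowest, and iCSC and Sphere overlapped. The leading probe set was called higher in iCSC than in Monolayer (log2 change 0.43 ± 0.11 SE, limma adjusted p = 0.015). That call was lost without the first (adjusted p = 0.0919) or the second (0.0749) Monolayer array. The change was 0.15 ± 0.11 in iCSC against Sphere (adjusted p = 0.335) and 0.29 ± 0.11 in Sphere against Monolayer (adjusted p = 0.0606). The Sphere against Monolayer change was called without the first (adjusted p = 0.022) or the second (0.0215) iCSC array.

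The other TCF3 probe sets did not follow the leading one. Of 14 probe sets, 8 were tested, and in iCSC against Monolayer 2 were called higher and 4 lower. The higher ones changed by 0.43 and 0.81, and the lower ones by -1.10, -1.0004, -0.83 and -0.63. The names of the probe sets with -1.0004, -0.83 and -0.63 end in x_at. Those of both higher ones and of the one with -1.10 end in s_at. What part the kind of probe set plays in the disagreement was not tested. The probe set with -1.10 gave 7.96 and 7.97 in iCSC, 8.61 and 8.72 in Sphere, and 9.17 and 8.95 in Monolayer, an order opposite to that of the leading one. The mean over the passing probe sets turned the TCF3 change to -0.32 in iCSC against Monolayer (adjusted p = 0.0412). No transcript form was assigned to the probe sets here.

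**Figure D3:**
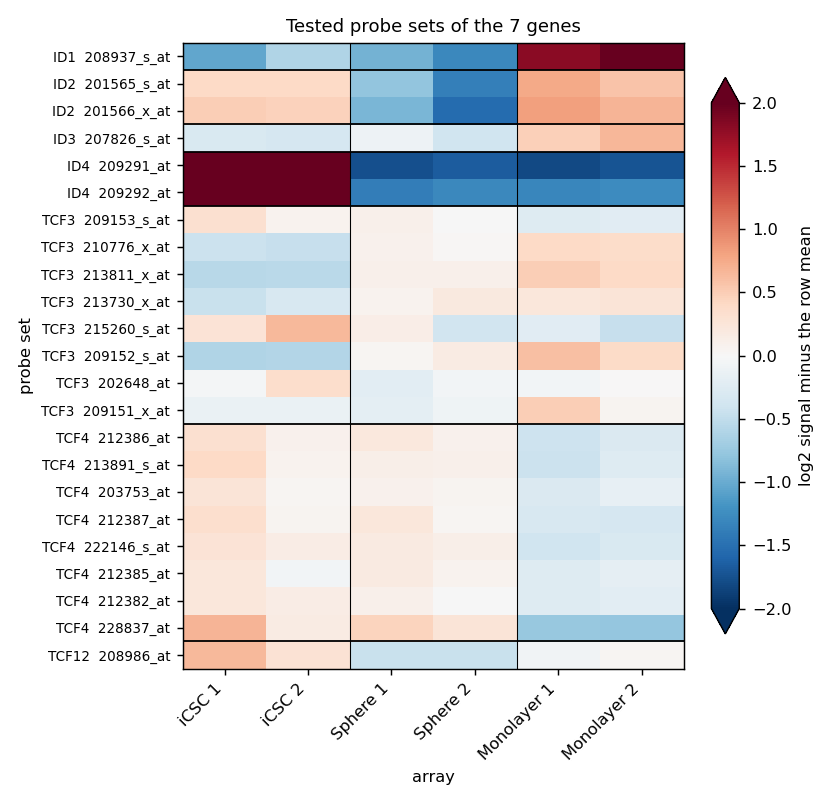
Log2 GCRMA signal minus the mean over the 6 arrays (colour) for the 23 tested probe sets of the 7 genes (y axis), with the arrays on the x axis; the colour scale ends at -2 and 2. The 2 ID2 and the 2 ID4 probe sets run alike, the 8 TCF4 probe sets are lowest in Monolayer, and the TCF3 probe sets run in opposite directions.

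Counted by probe set, 9 of the 23 tested member probe sets were called in iCSC against Sphere, 5 higher and 4 lower in iCSC, beside 34.5% of all probe sets (17.4% higher and 17.1% lower). All 4 lower ones belong to TCF3. In Sphere against Monolayer 16 were called, 8 higher and 8 lower in Sphere, beside 57% of all probe sets (28.1% higher and 28.9% lower). In iCSC against Monolayer 18 were called, 12 higher and 6 lower in iCSC, beside 54.2% of all probe sets (27.7% higher and 26.6% lower). These counts move with single arrays: without the first Monolayer array, 6 were called in Sphere against Monolayer and 11 in iCSC against Monolayer, and without the second 8 were called in Sphere against Monolayer. Without the first Sphere array 7, and without the second 8, were called in Sphere against Monolayer. Both tested ID4 probe sets count among the higher ones in both comparisons with iCSC, a direction that the filter fixed. Probe sets of 1 gene share its transcripts and are no replicates of each other.

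The tissue-specific basic helix-loop-helix factors are the partners from which ID proteins keep the E proteins. Of 37 on the list, 33 had a single-symbol probe set and 5 were tested. Lower in iCSC than in Sphere were 4 of 5, while in Sphere against Monolayer 4 were higher and 1 lower, and in iCSC against Monolayer 1 was higher and 1 lower. Among all genes, 19.2% were lower in iCSC than in Sphere, 30% higher and 29.1% lower in Sphere than in Monolayer, and 29% higher and 26.6% lower in iCSC than in Monolayer. The medians were -0.79, 1.84 and 0.02 (log2), beside 0.01, 0.01 and 0.02 over all genes. HAND1 and MSC passed the filter through their Sphere arrays alone, which fixes the direction of their changes, so these counts and medians describe the list and support nothing. HAND1, a heart and sympathetic lineage factor, averaged 2.24 ± 0.02 in iCSC, 9.48 ± 0.20 in Sphere and 2.23 ± 0.02 in Monolayer. It was at least 22.4-fold lower in iCSC than in Sphere (limma adjusted p = 2.69e-06) and at least 22.4-fold higher in Sphere than in Monolayer (8.38e-07). MSC (musculin), a repressor in muscle and lymphoid cells, was above the limit in Sphere only, where it averaged 6.47 ± 0.69, at least 2.77-fold above either other culture.

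TWIST1, a mesoderm and neural crest factor, averaged 11.63 ± 0.05 in iCSC, 12.42 ± 0.15 in Sphere and 10.58 ± 0.09 in Monolayer, and all 3 changes were called (limma adjusted p = 0.00141, 1.56e-05 and 0.000261). HAND2, which acts in sympathetic neurons, averaged 5.29 ± 0.19 in iCSC and 5.98 ± 0.10 in Sphere, against 5.03 ± 0.06 in Monolayer, where 1 of 2 arrays was under the limit. It was lower in iCSC than in Sphere (-0.69 ± 0.18, adjusted p = 0.0238) and higher in Sphere than in Monolayer (0.95 ± 0.18, adjusted p = 0.0042). TWIST2 ran the other way, with 5.62 ± 1.19 in iCSC (1 of 2 arrays under the limit), 5.56 ± 0.68 in Sphere and 10.99 ± 0.05 in Monolayer. It was lower in iCSC than in Monolayer (-5.36 ± 0.56, adjusted p = 0.000379) and lower in Sphere than in Monolayer (-5.43 ± 0.56, adjusted p = 0.000285).

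HES and HEY repressors, helix-loop-helix factors known as Notch targets, and the related BHLHE40 and BHLHE41 gave 7 tested genes of 13. Of the 7, 1 was higher and 2 lower in iCSC than in Sphere, in Sphere against Monolayer 3 were higher and 3 lower, and in iCSC against Monolayer 2 were higher and 3 lower. Called in all were thus 3, 6 and 5 of 7, beside 38.5%, 59% and 55.6% of all genes, and the medians were 0.37, -0.06 and -0.91. BHLHE41 passed the filter through its Sphere arrays alone and HEY2 through its Monolayer arrays alone. That fixes the direction of their changes, so these counts and medians describe the list and support nothing. HES6, a positive factor in neuronal differentiation, averaged 9.60 ± 0.35 in iCSC, 6.65 ± 0.20 in Sphere and 4.82 ± 0.11 in Monolayer. iCSC exceeded Sphere 7.73-fold (limma adjusted p = 0.000136) and Monolayer at least 24.3-fold (9.89e-06). BHLHE40, a stress and clock factor, averaged 4.56 ± 0.13 in iCSC, 8.17 ± 1.13 in Sphere and 8.23 ± 0.05 in Monolayer, and the iCSC level was at least 9.0-fold below that of Sphere (0.00161). HEY1 averaged 10.18 ± 0.29 in iCSC, 9.81 ± 0.73 in Sphere and 11.75 ± 0.17 in Monolayer, and was lower in both spheroid cultures than in Monolayer (-1.56 ± 0.33 in iCSC, adjusted p = 0.00721, and -1.93 ± 0.33 in Sphere, adjusted p = 0.00262).

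BMP ligands bind paired receptors that phosphorylate SMAD1, SMAD5 and SMAD9, and these enter the nucleus with SMAD4. Of 8 ligands, 2 were tested. BMP4 averaged 5.05 ± 1.28 in iCSC, with 1 of 2 arrays under the limit, 9.78 ± 0.09 in Sphere and 8.32 ± 0.23 in Monolayer. It was lower in iCSC than in Sphere (log2 change -4.73 ± 0.53 SE, limma adjusted p = 0.000841) and lower in iCSC than in Monolayer (-3.27 ± 0.53, adjusted p = 0.00247), while Sphere against Monolayer was not called (1.46 ± 0.53, adjusted p = 0.0518). BMP7 averaged 10.08 ± 0.11 in iCSC, 7.83 ± 0.22 in Sphere and 2.75 ± 0.47 in Monolayer. iCSC exceeded Sphere 4.76-fold (adjusted p = 0.000884) and Monolayer at least 33.8-fold (3.56e-06).

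Of 11 BMP receptors and coreceptors, 7 were tested. Relative to Sphere, iCSC had 3 higher and 1 lower, in Sphere against Monolayer 4 were higher and 1 lower, and in iCSC against Monolayer all 7 were higher. Of all genes, 19.3% were higher and 19.2% lower, 30% higher and 29.1% lower, and 29% higher and 26.6% lower in the same comparisons. The medians were -0.21, 1.05 and 0.93, and RGMA passed the filter through its iCSC arrays alone. That fixes the direction of the RGMA changes, so these counts and medians describe the list and support nothing. BMPR1B, a type I receptor, averaged 7.11 ± 0.26 in iCSC, 10.08 ± 0.51 in Sphere and 1.90 ± 0.01 in Monolayer, and was at least 33.9-fold higher in Sphere than in Monolayer (limma adjusted p = 1.98e-06). BMPR2, the type II receptor, averaged 9.87 ± 0.67 in iCSC, 10.13 ± 0.19 in Sphere and 7.81 ± 0.15 in Monolayer, 5.00-fold higher in Sphere than in Monolayer (0.000783). RGMA, a coreceptor, was above the limit in iCSC only, at 5.78 ± 0.29, and at least 1.72-fold above either other culture.

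Of the 4 SMADs of the pathway, all were tested. Relative to Sphere, 2 were higher in iCSC, in Sphere against Monolayer 1 was higher and 2 lower, and in iCSC against Monolayer 1 was higher and 1 lower, with medians of 0.59, -0.27 and 0.00. The called shares of all genes were 38.5%, 59% and 55.6%, to which 2, 3 and 2 of 4 are near. SMAD1 averaged 11.20 ± 0.28 in iCSC, 10.20 ± 0.32 in Sphere and 11.43 ± 0.13 in Monolayer. It was higher in iCSC than in Sphere (log2 change 1.004 ± 0.19 SE, limma adjusted p = 0.0075) and lower in Sphere than in Monolayer (-1.23 ± 0.19, adjusted p = 0.00172), the comparisons in which ID2 was called. Listed genes outside the BMP pathway, namely VIM, FN1, SNAI2, WWTR1 and RBL2, were called in the same comparisons and directions. A link between SMAD1 and ID2 was not tested. SMAD9 averaged 10.91 ± 0.51 in iCSC, 10.13 ± 0.34 in Sphere and 3.36 ± 0.23 in Monolayer, and exceeded Monolayer at least 60.3-fold in iCSC (5.07e-06) and at least 35.0-fold in Sphere (5.38e-06).

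Of 13 BMP inhibitors, 8 were tested. Against Sphere, 1 was higher and 3 lower in iCSC, in Sphere against Monolayer 3 were higher and 5 lower, and in iCSC against Monolayer 2 were higher and 4 lower, with medians of -0.07, -0.73 and -0.71. Over all genes 19.3% were higher and 19.2% lower, 30% higher and 29.1% lower, and 29% higher and 26.6% lower. NOG and FST passed the filter through their Monolayer arrays alone, which fixes the direction of their changes. These counts and medians therefore describe the list and support nothing. NOG (noggin), a secreted BMP antagonist, averaged 2.39 ± 0.02 in iCSC, 2.40 ± 0.02 in Sphere and 10.27 ± 0.15 in Monolayer. It was at least 38.5-fold lower in iCSC and in Sphere than in Monolayer. The changes in the deposited values, not the bounds, had limma adjusted p = 7.41e-07 and 6.05e-07. FST (follistatin) was likewise above the limit in Monolayer only, at 9.42 ± 0.05, and at least 21.5-fold lower in each spheroid culture. SMAD6, an inhibitory SMAD that is itself a BMP target, averaged 5.97 ± 0.04 in iCSC, 5.06 ± 0.31 in Sphere (1 of 2 arrays under the limit) and 8.21 ± 0.17 in Monolayer. It was lower in iCSC than in Monolayer (-2.24 ± 0.21, adjusted p = 0.000221) and lower in Sphere than in Monolayer (-3.16 ± 0.21, adjusted p = 3.52e-05), as ID1 was. The iCSC level was also above that of Sphere (0.92 ± 0.21, adjusted p = 0.0144), where ID1 was not called. BAMBI, a decoy receptor, and NBL1, a secreted antagonist, were under the limit in Monolayer and averaged 5.44 ± 1.03 and 5.65 ± 0.65 in iCSC and 7.10 ± 0.64 and 7.10 ± 0.57 in Sphere. BAMBI had 1 of 2 iCSC arrays under the limit. Both genes were called higher in each spheroid culture than in Monolayer, opposite in direction to SMAD6 and ID1. Whether SMAD6 and ID1 are linked here was not tested.

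**Figure D4:**
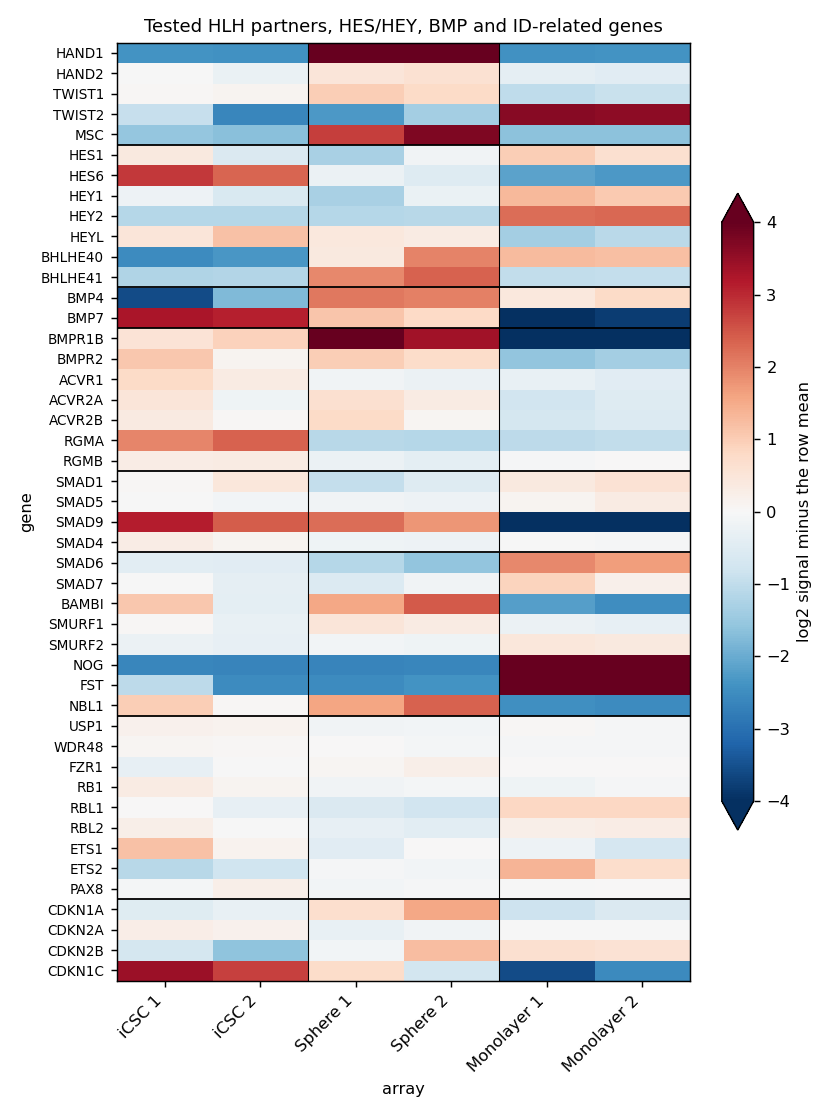
Log2 GCRMA signal minus the mean over the 6 arrays (colour) for the tested helix-loop-helix partners, HES and HEY genes, BMP pathway genes, other ID-related genes and CDK inhibitors (y axis), with the arrays on the x axis; the colour scale ends at -4 and 4. NOG and FST are high in Monolayer alone, HAND1 in Sphere alone, and SMAD9 in both spheroid cultures.

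Other ID partners and the proteins that turn ID proteins over gave 9 tested genes of 11. Against Sphere, iCSC had 4 higher and 1 lower, in Sphere against Monolayer 3 were lower, and in iCSC against Monolayer 2 were higher and 2 lower, with medians of 0.28, -0.08 and 0.07. Of all genes, 38.5%, 59% and 55.6% were called in the same comparisons. The counts of these 9 genes lay above that share in iCSC against Sphere and below it in the comparisons with Monolayer. They describe the list and support nothing. RBL1, a pocket protein of the retinoblastoma family, averaged 8.23 ± 0.22 in iCSC, 7.71 ± 0.13 in Sphere and 9.22 ± 0.01 in Monolayer, lower in Sphere than in Monolayer (log2 change -1.51 ± 0.16 SE, limma adjusted p = 0.000305). RB1, the retinoblastoma gene, was higher in iCSC than in Sphere by 0.35 ± 0.10 (adjusted p = 0.0361). ETS2, an activating factor that ID proteins bind, averaged 7.34 ± 0.22 in iCSC, 8.23 ± 0.04 in Sphere and 9.32 ± 0.46 in Monolayer, and all 3 changes were called (adjusted p = 0.0252, 0.00737 and 0.000649).

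The 4 CDK inhibitors, cell cycle brakes that E proteins activate and ID proteins oppose in other systems, were all tested. Set against Sphere, 2 were higher and 2 lower in iCSC, in Sphere against Monolayer 2 were higher, and in iCSC against Monolayer 1 was higher and 1 lower, with medians of -0.53, 0.89 and 0.27. The share of all genes called was 38.5%, 59% and 55.6%, near 2 of 4 in the comparisons with Monolayer. CDKN1C (p57) averaged 9.32 ± 0.49 in iCSC, 6.25 ± 1.05 in Sphere and 3.18 ± 0.73 in Monolayer, 8.41-fold higher in iCSC than in Sphere (limma adjusted p = 0.00649) and, being under the limit on both Monolayer arrays, also higher in iCSC than in Monolayer (0.000215). CDKN1A (p21) averaged 5.42 ± 0.12 in iCSC, 6.91 ± 0.62 in Sphere and 5.11 ± 0.18 in Monolayer (1 of 2 arrays under the limit). It was lower in iCSC than in Sphere (-1.49 ± 0.30, adjusted p = 0.00965) and higher in Sphere than in Monolayer (1.81 ± 0.30, adjusted p = 0.00247). CDKN2A was higher in iCSC than in Sphere by 0.44 ± 0.09 (adjusted p = 0.0107). CDKN2B averaged 5.03 ± 0.64 in iCSC (1 of 2 arrays under the limit), 6.77 ± 0.97 in Sphere and 6.80 ± 0.05 in Monolayer. It was lower in iCSC than in Sphere (-1.73 ± 0.48, adjusted p = 0.0306) and than in Monolayer (-1.77 ± 0.48, adjusted p = 0.0204).

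The genes whose profiles lay nearest to each ID gene were found by the Euclidean distance between profiles over the 6 arrays, each with its own mean taken off. The points are 6 arrays of 3 cultures, so any gene with changes of similar size between the cultures comes out near, and the values are a description. For ID1 they were TSPAN4, a tetraspanin (distance 0.471, r = 0.990), GLRB, a glycine receptor subunit (0.508, r = 0.989), and TXNRD2, the mitochondrial thioredoxin reductase (0.558, r = 0.986). For ID2 they were ORAI3, a calcium channel subunit (0.156, r = 0.998), and ERMP1, a peptidase of the endoplasmic reticulum (0.317, r = 0.987). For ID3 they were ZNF148, a zinc finger factor (0.136, r = 0.991), UHMK1, a kinase (0.154, r = 0.989), and LOC100289230 (0.167, r = 0.993). For ID4 they were NUDT11, a phosphohydrolase (0.0898, r = 0.9999), and TRPS1, a GATA-type repressor (0.227, r = 0.9998). NUDT11 gave 7.97 and 7.26 in iCSC, 2.36 and 2.44 in Sphere, and 2.41 and 2.45 in Monolayer. NUDT11 and TRPS1, like ID4, passed the filter through their iCSC arrays alone. That fixes their shared direction, so their nearness to ID4 and the r values support nothing.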

How the data were processed

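The authors deposited 1 log2 GCRMA signal per probe set and array. GCRMA corrects probes for background from their base composition, equalises the arrays and summarises each probe set; GCRMA and Partek are named, per the submitters' processing notes, without versions or settings. GCRMA holds unexpressed probe sets in a narrow low band, so folds that start there are given as bounds. An adjusted p beside a bound tests the change in the deposited values, not the bound. Groups came from the culture and pretreatment labels.

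Of 54675 probe sets, 41091 had a single gene symbol in the platform annotation, 1801 several, 11721 none and 62 were controls. Symbols were updated by Entrez identifier for 41037 probe sets against RefSeq GRCh38.p14. A probe set was tested if at least 2 of 6 arrays reached log2 5 (18059 probe sets, 10459 genes). limma 3.58.1 in R 4.3.3 fitted a mean per culture over all 6 arrays, with empirical Bayes moderation and a mean-variance trend. It was also run on simulated data with far fewer changed genes than were called here. That run does not vouch for the calls. Tests were two-sided. Tables and figures were made with Python 3.11.15, pandas 2.3.3 and matplotlib 3.10.9. Promoters and motif shares came from RefSeq windows, which matched all 4 ID genes.

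The members and gene lists were chosen with earlier results of these data known. All 7 members were named whatever their values, and for each ID gene the 3 nearest genes, of which the third for ID2 and for ID4 is not reported here. From each other list the rule took up to 4 called genes with the largest change in a comparison, and the text names part of them. Alternatives covered the filter, a floor at log2 5, normalization, moderation, probe set choice, chromosome medians, a replicate block and leaving out each array.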

Additional observations from a re-analysis of the deposited data

How the results depend on the processing

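The calls of ID1 (16 alternatives) and ID3 (16) kept their direction and their side of the threshold in both comparisons in which each was called. So did those of ID2 in iCSC against Sphere and Sphere against Monolayer (16). The calls of TCF4 in iCSC against Monolayer (17) and TCF12 in iCSC against Sphere (17) did so too. The widest adjusted p among them was 0.0481, for TCF4. ID4 stayed called in its 15 alternatives, but it passed the filter through the iCSC arrays alone, which fixes its direction. Those calls thus show no robustness. Without 1 iCSC array ID4 no longer passed the filter and has no value there. Genes called in iCSC against Sphere numbered 2402 with values under log2 5 set to 5, 2281 without variance moderation and 2392 to 3762 when 1 array was left out, and in iCSC against Monolayer 3809 to 5550 when 1 array was left out. Member probe sets called with values under log2 5 set to 5 numbered 3 in iCSC against Sphere, 6 in Sphere against Monolayer and 9 in iCSC against Monolayer. In Sphere against Monolayer they numbered 10 without a filter and 9 without moderation. Leaving out 1 array gave 6 to 17 there and 11 to 18 in iCSC against Monolayer, with the lowest counts without the first Monolayer array. Signs turned where no call was made for ID3 in iCSC against Sphere (-0.21 to 0.077 with 1 array left out, the highest without the first Sphere array). They also turned for TCF4 in iCSC against Sphere (-0.061 to 0.17 with 1 array left out, -0.061 without the first iCSC array and -0.0065 without the second Sphere array). For TCF3 they turned in iCSC against Sphere (-0.17 with the mean of all passing probe sets) and in Sphere against Monolayer (-0.15 with that mean, -0.11 without probe sets whose names end in x_at or s_at). Called values turned for TCF3 in iCSC against Monolayer (-0.32 with the mean of all passing probe sets, adjusted p = 0.0412) and for TCF12 in Sphere against Monolayer (0.007 with chromosome medians removed). TCF3 gained a call in Sphere against Monolayer in 4 of 17 alternatives (adjusted p = 0.0428 with renewed quantile normalization, 0.0324 with chromosome medians removed, 0.022 and 0.0215 without the first and the second iCSC array), and ID2 gained one in iCSC against Monolayer with chromosome medians removed. TCF3 lost its call in iCSC against Monolayer in 5 of 17 alternatives, TCF12 lost its calls in 7 (Sphere against Monolayer) and 4 (iCSC against Monolayer) of 17, and TCF4 lost its Sphere against Monolayer call without moderation (adjusted p = 0.0537). The ID1 minus ID2 change ranged from -1.40 to -0.96, -1.53 to -1.09 and -2.71 to -2.27 (iCSC against Sphere, Sphere against Monolayer, iCSC against Monolayer) when 1 array was left out. All single-symbol probe sets of ID1, ID2 and ID3 have names that end in x_at or s_at, so the alternative without such probe sets gave no value for them. A replicate block gave 4106, 6219 and 5891 called genes in the same comparisons and 9, 15 and 18 called member probe sets. The numbers do not pair the arrays: deviations of same-numbered arrays correlated at 0.17 (iCSC and Sphere), -0.05 (iCSC and Monolayer) and 0.02 (Sphere and Monolayer). Except where the alternative itself sets the cause (fewer arrays, genes or degrees of freedom), the cause was not tested.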

Other observations

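One probe set carries the symbols of both ID2 and its pseudogene ID2B and stayed out of the tests. It gave 7.29 and 7.27 in iCSC, 5.99 and 4.71 in Sphere, and 6.32 and 6.69 in Monolayer, so the Sphere arrays were the lowest, as for the ID2 probe sets. Its iCSC arrays lay above the Monolayer arrays, whereas on both ID2 probe sets they lay below them. The probe set of ID2B alone reached no more than 2.40 on any of the 6 arrays.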
